A study of Mus musculus with 28 samples.

Results

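The libraries labelled p38i.d7 and ctr.d7 were compared, which are 4 of the 28 RNA-seq libraries of the series. All 4 came from mouse embryonic fibroblasts (MEFs), the primary mesenchymal cells of the mid-gestation mouse embryo, whose genotype the labels give as wild type and which in the paper carry OG2, an Oct4-GFP reporter allele. The MEFs had been infected with retroviruses that express Oct4, Klf4 and Sox2 (OKS), the factors that turn fibroblasts into induced pluripotent stem cells, and were collected on day 7 of induction in the reprogramming medium iCD1. In the p38i group (n = 2 libraries) the p38 inhibitor SB203580 was given during induction, and in the control group (n = 2 libraries), which the labels call ctr and the paper DMSO, the solvent was given. In the pre-p38i group, given for reference at the end, the inhibitor was instead given to the MEFs before induction. Neither the labels nor the methods name a sort, so the RNA was read as that of the whole culture, in which fewer cells of a type and less RNA per cell cannot be told apart. Nothing says that libraries of a group came from separate cultures, so the p-values measure the spread between these libraries, which may be technical.

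The p38 MAP kinases are switched on by stress and cytokines through the kinases MKK3 and MKK6 and pass the signal to kinases such as MK2, which steady short-lived messenger RNAs and phosphorylate the small heat shock protein HSP27. SB203580 blocks the catalytic site of p38α and p38β. A fibroblast on the way to pluripotency shuts down its mesenchymal genes, gains E-cadherin and other epithelial genes in the mesenchymal-to-epithelial transition (MET), divides quickly, and only late switches on the endogenous pluripotency network.

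The table holds 1 whole number per gene and library, read as TPM, a length-normalized share of the library. The 4 libraries added up to between 991359 and 991697, and since TPM keeps no read number neither the depth nor a counting interval can be stated. Replicates of a group correlated over the genes tested on the log2 scale at r = 0.987 in DMSO and 0.984 in p38i. Mitochondrial genes took 3.62% and 4.02% of the DMSO libraries and 5.75% and 4.88% of the p38i libraries, and the part of this share in the differences below was not tested. Fibroblast markers were present in all 4 libraries, with sums over 12 genes of 1822 and 1898 in DMSO against 2048 and 2100 in p38i, and 9421 to 9534 in MEFs. A gene was called changed at a Benjamini-Hochberg adjusted p under 0.05 by limma on log2(value + 1), with all 28 libraries in a single model. A log2 fold change here is p38i minus DMSO on that scale, which understates changes of low genes.

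Of the 13230 genes tested, limma called 4509 (34.1%) changed on day 7, of which 2186 (16.5% of the genes tested) were higher and 2323 (17.6%) lower in p38i. The groups did not overlap for 4490 of the called genes, and for 7846 of all genes tested. Most changes were small, with a median size of 0.49 on the log2 scale among called genes. The large ones were mostly falls: 554 genes fell at least 2-fold and 94 at least 4-fold, whereas 198 rose at least 2-fold and 5 at least 4-fold. The median over all genes tested was 0. Counts of called members of the gene lists below are to be read against the shares of 16.5% higher and 17.6% lower given here.

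The genes that fell most were low or at 0 in p38i. Cd209f and Cd209g, neighbouring C-type lectin genes of the DC-SIGN family on chromosome 8 (4102787 to 4105835 and 4134098 to 4137707, GRCm38), stood at 46 and 39 and at 39 and 37 in the DMSO libraries and at 0 in both p38i libraries. Since the pair is near-identical, reads may be split between them. Bhmt, which remethylates homocysteine with betaine, stood at 54 and 51 in DMSO against 3 and 4 in p38i (log2 fold change -3.58 with a standard error of 0.25, adjusted p = 2.6e-09, limma). The sarcomere genes Mylpf, a fast skeletal myosin light chain, and Myh1, a fast myosin heavy chain, went from 55 and 49 to 4 and 4 and from 107 and 101 to 14 and 16. Part of Myh1 is near-identical to the antisense model Gm12300, which went from 5 and 3 to 0 and 1. Of 12 skeletal muscle markers, 10 were at 0 in all 4 libraries and the others, at 4 or less in each library, were not called, and the part of muscle cells in these values was not tested. Slc13a3, a dicarboxylate transporter, fell from 35 and 38 to 5 and 6, and Sfrp2, a secreted Wnt modulator, from 44 and 45 to 6 and 8. The other genes of this group were the interferon-inducible GTPase Tgtp2, the immunoproteasome subunit Psmb8, the MHC class II chaperone Cd74, the non-classical MHC gene H2-Q6, and the pluripotency marker Dppa5a.

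The genes that rose most encode matrix, membrane and signalling proteins. Gpr143, a receptor of pigment cell organelles (chromosome X, 152781921 to 152808646), stood at 5 and 4 in DMSO against 23 and 24 in p38i (log2 fold change 2.16 with a standard error of 0.32, adjusted p = 3.7e-05, limma). Capn6, a calpain without protease activity that binds microtubules, went from 23 and 21 to 90 and 87. Aebp1, a collagen-binding matrix protein (chromosome 11, 5861947 to 5872088), went from 49 and 48 to 153 and 152, and Tnc, which encodes tenascin C, from 18 and 22 to 57 and 56. Among secreted factors and proteases, Gdf11 of the TGF-beta family rose from 11 and 12 to 34 and 36, Adamts14, a procollagen protease, from 8 and 7 to 26 and 28, and Mmp12, an elastase, from 9 and 7 to 25 and 28. Gap43, a growth cone protein, went from 9 and 11 to 29 and 38, and Itm2a, a membrane protein, from 25 and 26 to 74 and 74. Map2k6, which encodes MKK6, the kinase that activates p38, rose from 9 and 10 to 26 and 27 (log2 fold change 1.39 with a standard error of 0.13, adjusted p = 1.6e-07, limma). Matn2 and Mxra7 complete the group, with values of 14 and 14 against 41 and 44 and of 6 and 10 against 23 and 20. In none of these 24 genes did the libraries of the groups overlap, which the rule for naming them required.

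**Figure D1:**
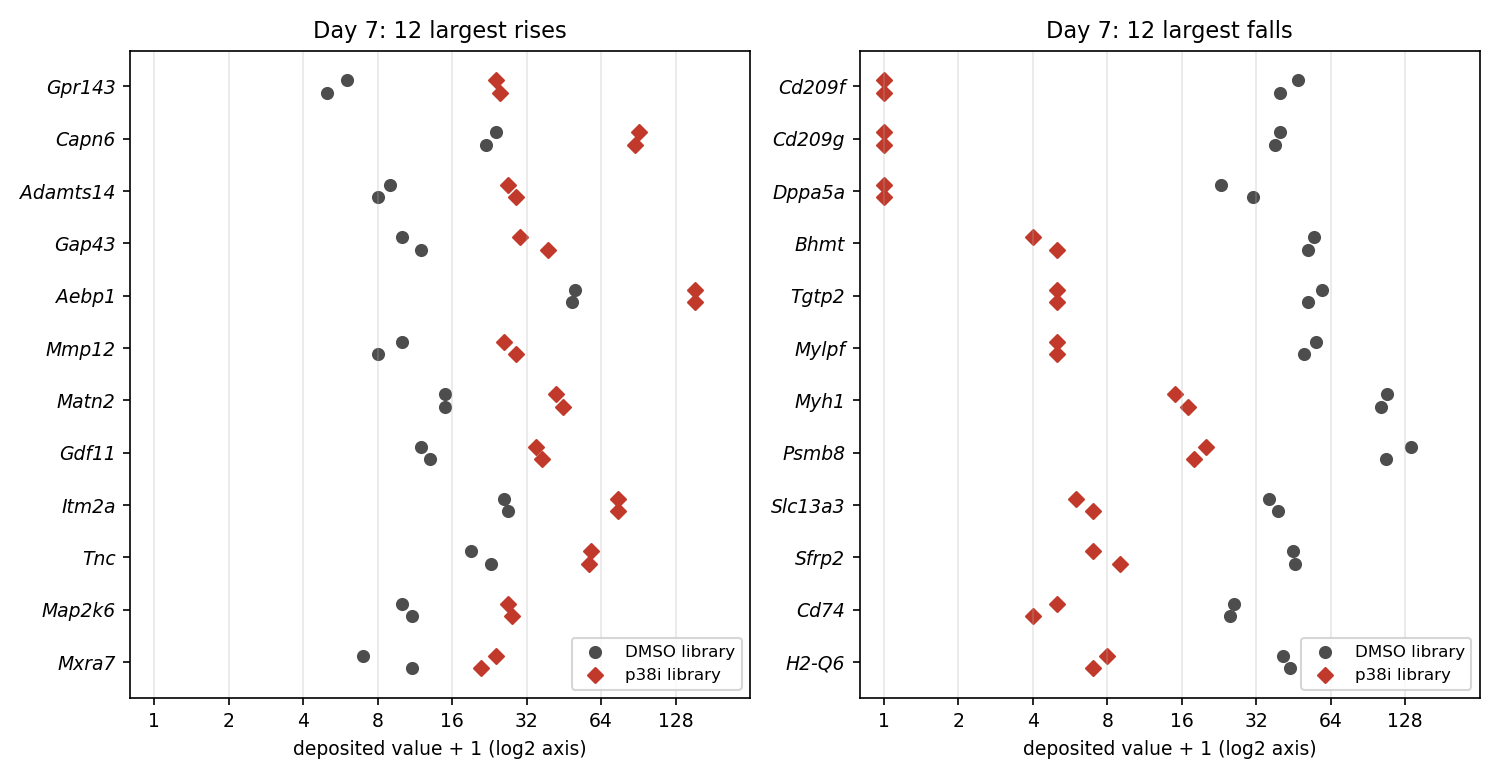
Deposited value plus 1 (log2 axis) in each of the 2 DMSO and 2 p38i libraries of day 7 for the 12 called genes with the largest rise and the 12 with the largest fall; every p38i point of a gene lies on the same side of its DMSO points, and Cd209f, Cd209g and Dppa5a are at 0 in p38i.

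The pluripotency network was lower in p38i. Of 30 genes listed, 20 were high enough to be tested, and of these 14 fell, none rose and the median log2 fold change was -0.95. Dppa5a, a marker of naive pluripotent cells (chromosome 9, 78367052 to 78368177), stood at 22 and 30 in DMSO and was listed at 0 in both p38i libraries. Sall4, a zinc finger factor of the core network, stood at 8 and 8 in DMSO against 0 and 0 in p38i, and Esrrb, a nuclear receptor of naive cells, at 7 and 4 against 0 and 0. Zfp42, which encodes the marker Rex1, stood at 31 and 29 against 7 and 9 (log2 fold change -1.79 with a standard error of 0.29, adjusted p = 7.7e-05, limma). The Zfp42 call was lost with a pseudocount of 0.1 (log2 fold change -1.90, adjusted p = 0.11, limma). Tested members that were not called include Tfcp2l1 (35 and 38 against 30 and 26) and Tdh (254 and 245 against 196 and 184), both expressed in mouse embryonic stem cells. Nanog fell from 12 and 16 to 1 and 1, and Dppa3, at 0 and 1 against 0 and 0, was too low to be tested. Since the values of Pou5f1, Sox2 and Klf4 include the retroviral transgenes, they say little of the endogenous genes: Sox2 stood at 842 and 825 against 752 and 823 and Klf4 at 615 and 605 against 596 and 607, neither of which was called, while Pou5f1 fell by 0.13 on the log2 scale (adjusted p = 0.037, limma), a call lost without DMSO replicate 2 (log2 fold change -0.09), without p38i replicate 1 (-0.08) and after quantile normalization. For Dppa5a the table lists 7 genes with a near-identical stretch, of which Pigp alone reached a value of 1, at 26 and 24 against 33 and 30.

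Epithelial genes were the list with the lowest median among the pathways described here. Of 28 tested members of 35 genes for adhesion, tight junctions and keratins, 23 were lower, none was higher and the median log2 fold change was -1.16. With a pseudocount of 0.1 in place of 1, 10 members were called lower. The largest changes were in tight junction claudins: Cldn4 stood at 38 and 27 in DMSO against 6 and 4 in p38i (log2 fold change -2.48, standard error 0.36, adjusted p = 2.4e-05, limma), and Cldn7 at 18 and 16 against 4 and 3. Cldn3 stood at 20 and 14 against 7 and 3, a call lost without DMSO replicate 1 (log2 fold change -1.41) or p38i replicate 2 (-1.15), and the keratin gene Krt8 at 72 and 71 against 31 and 28. Dsg2, a desmosomal cadherin, stood at 20 and 17 against 5 and 5. With a pseudocount of 0.1 the calls of Cldn3, Krt8 and Dsg2 were lost. The E-cadherin gene Cdh1 was less reduced, at 159 and 151 against 71 and 70, and plakoglobin, encoded by Jup, less again, at 242 and 250 against 208 and 205 (log2 fold change -0.25), while the desmoplakin gene Dsp, at 41 and 38 against 27 and 28, was not called. Epidermal differentiation genes, a separate list, were also mostly lower, with 10 of 17 tested members lower, 2 higher and a median of -0.74. Tgm1 and Tgm3, transglutaminases of the cornified envelope, stood at 25 and 22 against 5 and 4 and at 32 and 30 against 7 and 9. Its 2 higher members were Il1rn, the interleukin 1 receptor antagonist, at 9 and 7 against 20 and 18, and Sprr1a, at 9 and 3 against 15 and 9, whose call was lost without DMSO replicate 2 (log2 fold change 0.34) or p38i replicate 1 (0.66).

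Mesenchymal and matrix genes moved less, and more of their called members were higher in p38i than lower. Among mesenchymal transcription factors and cytoskeletal genes, 9 of 25 tested (36.0%) were higher and 4 (16.0%) lower, with a median of 0.18. Over all genes tested these shares were 16.5% and 17.6%, so the lower share was near that of all genes. Snai2, which represses E-cadherin, stood at 3 and 5 in DMSO against 8 and 8 in p38i, Zeb2 of the same function at 11 and 13 against 22 and 18, and Thy1, a fibroblast surface marker, at 17 and 21 against 30 and 32. With only the groups compared in the fit, the calls of Snai2, Zeb2, Thy1 and Zeb1 were lost. Twist1 and Zeb1, factors of the same programme, stood at 94 and 102 against 155 and 161 and at 12 and 13 against 16 and 18, with the Zeb1 call lost without DMSO replicate 1 (log2 fold change 0.36) or p38i replicate 2 (0.33). The factor Prrx1 and the fibroblast protein gene S100a4 went the other way, from 51 and 54 to 44 and 47 and from 173 and 187 to 102 and 86, although the call of Prrx1 was lost when any 1 of the 4 libraries was left out (log2 fold change -0.16 to -0.25). Matrix glycoproteins and proteoglycans had 18 of 36 tested genes higher and 6 lower, with a median of 0.29. Besides Aebp1 and Tnc these include Dcn, the proteoglycan decorin that binds collagen and TGF-beta, at 104 and 102 against 225 and 231 (log2 fold change 1.14, standard error 0.08, adjusted p = 2.4e-09, limma), and Mfap2, a microfibril protein, at 8 and 12 against 22 and 21. The lower members were led by Igfbp5 and Igfbp7, at 17 and 18 against 8 and 7 and at 36 and 38 against 23 and 15, which bind insulin-like growth factors. Of the collagens and their modifying enzymes, 13 of 32 were higher and 3 lower, with a median of 0.18, and the lower count was 1 without DMSO replicate 2. The crosslinking enzyme gene Loxl2 (41 and 42 against 74 and 77) and Bmp1, a procollagen C-proteinase (48 and 52 against 87 and 87), had the largest changes among its called members. The genes of type I collagen were not called, with Col1a1 at 290 and 319 against 270 and 277 and Col1a2 at 633 and 655 against 673 and 697. Contractile and actin genes had 8 of 19 (42.1%) higher and 1 (5.26%) lower. The higher ones include the YAP and SRF targets Ccn2 (235 and 268 against 451 and 466) and Ccn1 (81 and 92 against 142 and 136).

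Genes of cell division were lower in p38i. All 40 tested genes of mitosis and cytokinesis fell, with a median log2 fold change of -0.94, and 36 of 40 DNA replication genes were lower and none higher, with a median of -0.76. Plk1, a kinase of mitotic entry and spindle assembly, stood at 83 and 84 in DMSO against 38 and 35 in p38i, and Cdc20, which activates the anaphase-promoting complex, at 109 and 103 against 50 and 48 (log2 fold change -1.10, standard error 0.07, adjusted p = 1.9e-09, limma). The condensin subunit genes Ncapg and Ncapd2 stood at 19 and 16 against 6 and 7 and at 77 and 72 against 34 and 34. In replication, Cdc45, part of the helicase that opens the fork, stood at 22 and 22 against 6 and 9, the helicase subunit Mcm5 at 106 and 100 against 46 and 41, and Uhrf1, which guides maintenance methylation at the fork, at 95 and 98 against 41 and 42. Among the 4 replication genes that were not called were the regulators E2f1 (23 and 25 against 26 and 24) and E2f2 (5 and 7 against 4 and 4). Among the cell division genes with values in this paragraph, the groups overlapped in E2f1 alone. The groups also did not overlap for 7846 of all 13230 genes tested. Among the 4509 called genes this held for 4490. Non-overlap was thus common and says little of cell division genes.

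Genes of these lists are known to be driven from short promoter elements, and the sequences below show where the elements lie in the RefSeq promoters of GRCm38.p6. Of the 250 bases before each annotated start, CCAAT (reverse complement ATTGG) was found in 25 of 35 promoters of the mitosis list, or 71.4%, and the CHR-like element TTTGAA (reverse complement TTCAAA) in 13, or 37.1%. Over all 32851 promoters of the same length these shares were 33.8% and 16%. For the replication list, TTNGCGC, the core of an E2F site, was in 8 of 38 promoters (21.1%, against 5.19% of all) and CCAAT in 22 (57.9%). Both strands were searched, matches of different motifs may overlap, and 32 genes of each list were found in the promoter table. A match is a description of letters and not a measured site. The shares cover list members whether called or not, so they say nothing of p38i. Shown are windows of 80 bases, 5′ to 3′ on the strand of the gene, with the matches in capitals. They belong to the called genes with the largest change that hold both motifs within such a window, among the promoters considered.
Ncapd2, chr6:125191694-125191773, minus strand: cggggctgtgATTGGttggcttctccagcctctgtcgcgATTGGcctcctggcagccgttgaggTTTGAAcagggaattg
Cdc20, chr4:118437348-118437427, minus strand: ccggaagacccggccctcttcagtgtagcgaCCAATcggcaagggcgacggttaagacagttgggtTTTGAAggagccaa
Kif11, chr19:37376302-37376381, plus strand: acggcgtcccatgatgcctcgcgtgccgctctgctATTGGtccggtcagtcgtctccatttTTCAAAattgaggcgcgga
Mcm5, chr8:75109357-75109436, plus strand: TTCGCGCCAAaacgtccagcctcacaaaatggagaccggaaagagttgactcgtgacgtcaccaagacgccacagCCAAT
Uhrf1, chr17:56304108-56304187, plus strand: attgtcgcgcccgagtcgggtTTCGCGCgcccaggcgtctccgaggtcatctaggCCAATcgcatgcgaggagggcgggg
In the first 3 sequences the TTTGAA element lies on the side of the start site, and in the last 2 the CCAAT does; the run of capitals that opens the Mcm5 window joins overlapping matches of TTNGCGC on both strands.

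Antigen presentation and interferon genes were lower in p38i on day 7. Cells load peptides cut by the immunoproteasome onto MHC class I through the TAP transporter, and interferon raises most of these genes. Of 16 genes of this pathway, 14 were lower and none higher, with a median of -0.75. Psmb8 (chromosome 17, 34197721 to 34201454) stood at 134 and 106 in DMSO against 19 and 17 in p38i (log2 fold change -2.66, standard error 0.42, adjusted p = 5.9e-05, limma), and the partner subunit Psmb9 at 50 and 38 against 6 and 10. The Psmb8 call was lost with a pseudocount of 0.1 (log2 fold change -2.72, adjusted p = 0.12, limma). The transporter gene Tap1 stood at 101 and 94 against 29 and 31, and H2-K1, a classical class I heavy chain, at 1476 and 1338 against 483 and 437. H2-Q6 went from 40 and 43 to 7 and 6, but its reads may be shared with H2-Q4 and H2-Q7, which are near-identical in part. The wider interferon-stimulated list had 16 of 45 genes lower and 1 higher, with a median of -0.32. The GTPase genes were the most reduced: Iigp1 stood at 21 and 19 against 4 and 3, Igtp at 96 and 84 against 23 and 25, Irgm2 at 49 and 45 against 21 and 21, and the guanylate-binding protein gene Gbp2 at 87 and 80 against 34 and 39. Tgtp2 stood at 58 and 51 against 4 and 4, with reads that may be shared with Tgtp1. The call of Irgm2 was lost with a pseudocount of 0.1 (log2 fold change -1.16). Many antiviral effectors did not pass the test, such as Ifit1 (61 and 70 against 58 and 51), Isg15 (278 and 300 against 230 and 201) and Bst2 (892 and 871 against 788 and 763). Eif2ak2, the double-stranded RNA sensor PKR, was the only higher member, at 44 and 43 against 54 and 57.

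Macrophage markers were also lower, and their part in the interferon and antigen presentation results was not tested. Of 18 markers tested of 20, 8 were lower and 1 higher, with a median of -0.73, and the sum over the list was 452 and 463 in DMSO against 294 and 348 in p38i. The complement gene C1qa stood at 13 and 12 against 3 and 2 and the scavenger receptor gene Marco at 38 and 40 against 17 and 8, whereas the defining receptor gene Csf1r stood at 1 and 1 against 0 and 1 and Lyz2, lysozyme, at 98 and 109 against 135 and 113, neither of which was called. Without p38i replicate 2 both were, Csf1r lower and Lyz2 higher (log2 fold changes -1.0 and 0.38). Cd74, which belongs to class II presentation, stood at 25 and 24 against 4 and 3. In the T and NK cell list the CD3 chain gene Cd3g stood at 37 and 46 against 9 and 17, while the other 9 markers were at 0 in all 4 libraries.

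In the promoters of the interferon list, GAAANNGAA, the core of an interferon-stimulated response element, was found in 17 of 38 promoters of 34 genes (44.7%, against 7.13% of all promoters). The list was chosen as interferon-stimulated and the share covers members whether called or not, so it says nothing of p38i. Among the promoters considered, the windows of the 3 called members with the largest change that hold the element are shown with the matches in capitals.
Igtp, chr11:58199476-58199555, plus strand: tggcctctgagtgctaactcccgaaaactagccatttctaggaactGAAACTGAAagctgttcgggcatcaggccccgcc
Gbp2, chr3:142620569-142620648, plus strand: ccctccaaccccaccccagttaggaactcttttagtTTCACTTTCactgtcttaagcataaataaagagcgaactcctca
Irgm2, chr11:58214877-58214956, plus strand: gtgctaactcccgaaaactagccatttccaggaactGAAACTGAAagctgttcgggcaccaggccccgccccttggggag
Igtp and Irgm2, which lie close together on chromosome 11, share nearly the whole stretch around the element, and in Gbp2 the match is on the other strand.

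Lysosome genes rose together. Of 41 tested genes of the lysosome and its regulator TFEB, 33 were higher and 1 lower in p38i, with a median log2 fold change of 0.48. Gpnmb, a glycoprotein of stressed lysosomes, stood at 48 and 53 in DMSO against 117 and 105 in p38i (log2 fold change 1.12, standard error 0.08, adjusted p = 7.3e-09, limma), and Npc2, which carries cholesterol out of the lysosome, at 253 and 270 against 465 and 459. Rragd, a GTPase that recruits mTORC1 to lysosomes and is a TFEB target, stood at 13 and 17 against 32 and 32. Among proteases, Ctsd stood at 1063 and 1116 against 1713 and 1686 and Ctsa at 249 and 260 against 441 and 418. The factor genes themselves did not rise: Tfe3 was the lower member, at 64 and 69 against 58 and 52, a call lost without replicate 2 of DMSO (log2 fold change -0.22) or of p38i (-0.19), and Tfeb (13 and 7 against 8 and 10) and Mitf (1 and 1 against 1 and 1) were not called. TFEB and its relatives bind the CLEAR element. Its core TCACGTG (reverse complement CACGTGA) was found in 10 of 40 promoters of 33 lysosome genes (25%, against 3.13% of all promoters). This list was chosen to hold TFEB targets, and the share covers members whether called or not. The share therefore says nothing of p38i, and the part of TFEB was not tested. Among the promoters considered, the windows of the 3 called members with the largest change that hold the element follow.
Ctsa, chr2:164833693-164833772, plus strand: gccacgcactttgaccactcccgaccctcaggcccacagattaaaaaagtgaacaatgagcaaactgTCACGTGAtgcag
Ctsd, chr7:142387883-142387962, minus strand: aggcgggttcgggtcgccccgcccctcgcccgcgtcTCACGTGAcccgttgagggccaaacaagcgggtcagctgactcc
Fnip1, chr11:54438067-54438146, plus strand: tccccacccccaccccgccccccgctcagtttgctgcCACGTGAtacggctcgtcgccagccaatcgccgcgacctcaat
In Ctsa and Ctsd the element reads the same on both strands, and Fnip1, part of the folliculin complex that controls TFEB, stood at 19 and 21 against 32 and 31.

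**Figure D2:**
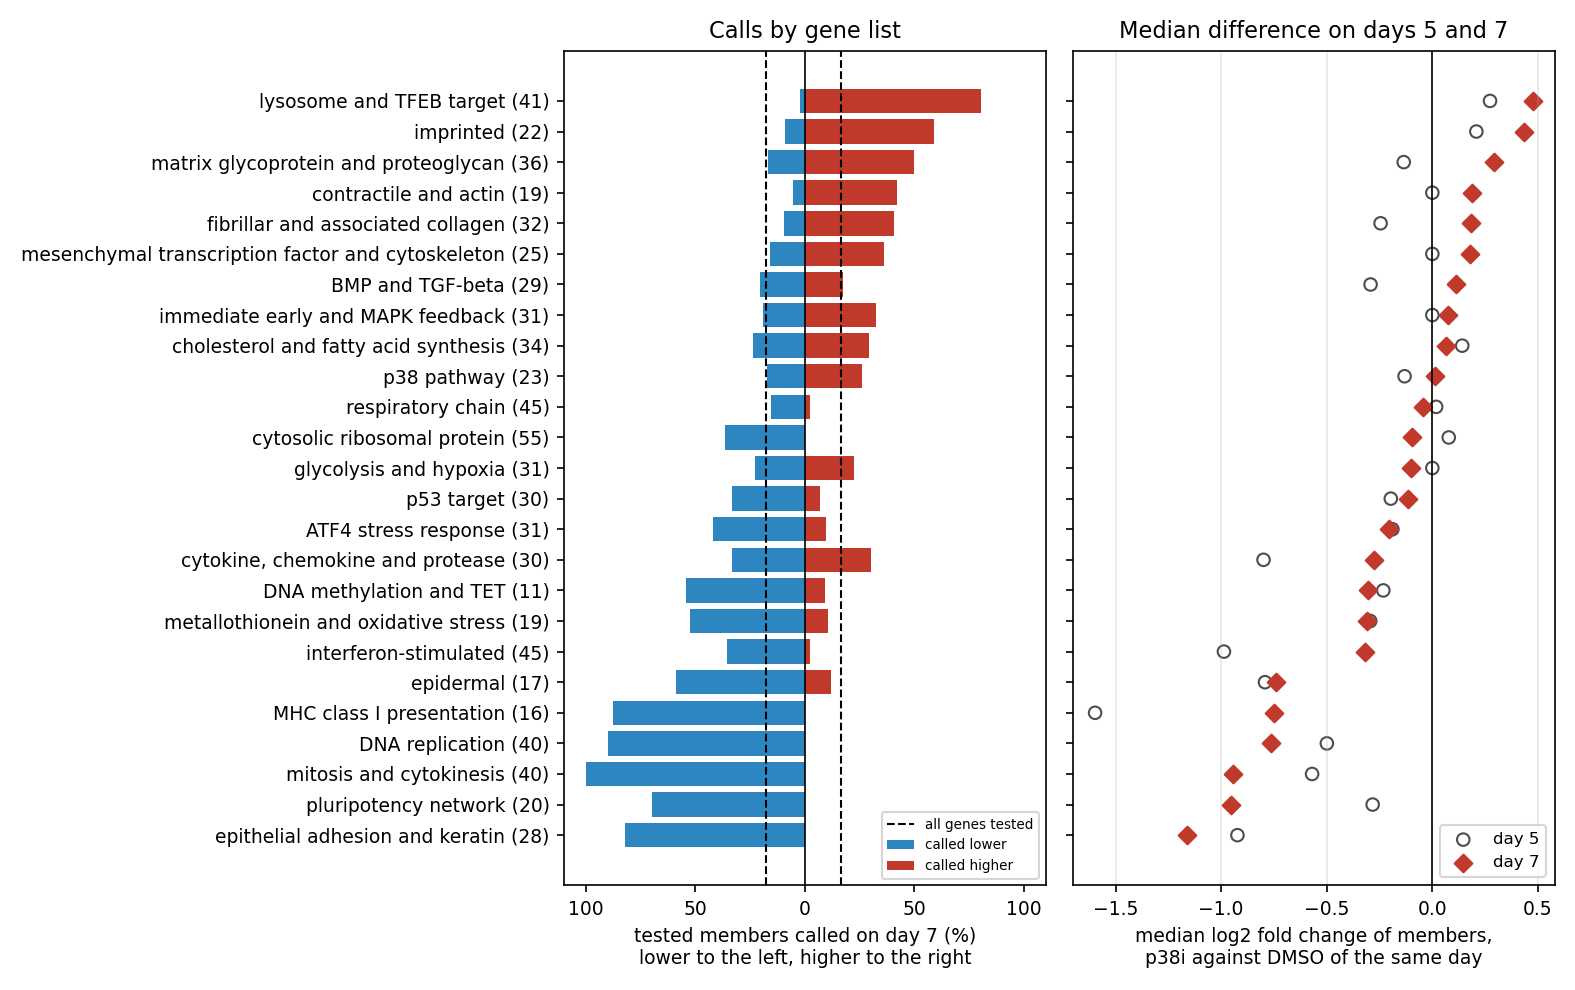
Left, share of the tested members of each gene list called lower (blue, to the left) or higher (red, to the right) in p38i on day 7, with dashed lines at the shares over all genes tested (17.6% and 16.5%); right, median log2 fold change of the members on day 5 (circles) and day 7 (diamonds). Members tested are given in parentheses; the mitosis list is lower throughout and 33 of 41 lysosome genes are higher.

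Of 23 tested genes of the p38 pathway itself, 6 (26.1%) were higher and 4 (17.4%) lower, against 16.5% and 17.6% of all genes tested, and the median was 0.01. The kinases at the centre were not called, with Mapk14 (p38α) at 40 and 42 against 45 and 41. The activator gene Map2k6 rose, as given above, and Mapkapk2, which encodes MK2, went from 92 and 89 to 106 and 108. Among the lower members, Hspb1, which encodes HSP27, stood at 341 and 306 against 166 and 152 (log2 fold change -1.02, standard error 0.08, adjusted p = 1.7e-08, limma). Ptgs2, the cyclooxygenase whose mRNA is steadied by p38 and MK2, stood at 30 and 32 against 15 and 14. The mRNA decay factor genes Zfp36 and Zfp36l1 stood at 12 and 13 against 9 and 8 and at 80 and 84 against 66 and 67. The call of Zfp36 was lost without replicate 2 of DMSO (log2 fold change -0.45) or of p38i (-0.43), and that of Zfp36l1 without any 1 of the 4 libraries (-0.26 to -0.33), so that 2 members were called lower without either replicate 2. Of the immediate early genes and feedback regulators of MAPK signalling, 10 of 31 (32.3%) were higher and 6 (19.4%) lower. Dusp1, a phosphatase of p38 and JNK, went from 21 and 18 to 39 and 41, Dusp8 from 4 and 4 to 9 and 10, and Egr1 from 17 and 18 to 46 and 29 (not called without p38i replicate 1, with a log2 fold change of 0.70). Myc fell from 43 and 39 to 19 and 18, Fosl1 from 26 and 32 to 18 and 17, and the ERK-responsive factor gene Etv4 from 75 and 66 to 48 and 43. Among p53 targets, 10 of 30 were lower and 2 higher, with a median of -0.12, and the higher count was 1 without DMSO replicate 1 and 0 without p38i replicate 2. Trp53 itself stood at 215 and 200 against 141 and 137, Gdf15, a stress cytokine, at 13 and 16 against 4 and 5, and Ckap2, a spindle protein, at 82 and 81 against 46 and 46. The p53 target Cdkn1a, the cell cycle inhibitor p21, was called lower with a small change, from 803 and 891 to 767 and 743, and was not called without replicate 2 of DMSO (log2 fold change -0.09) or of p38i (-0.14).

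Single signalling genes and secreted proteases changed in both directions. In the BMP and TGF-beta list 5 of 29 were higher and 6 lower, which is close to the shares over all genes tested (16.5% and 17.6%). Id1 and Id3, direct targets of BMP signalling, stood at 65 and 67 against 25 and 39 and at 69 and 69 against 29 and 31, and the ligand gene Bmp2 at 14 and 13 against 6 and 8. The Bmp2 call was lost without either DMSO library (log2 fold change -0.82 and -0.92) or p38i replicate 1 (-0.69), and the list's counts fell to as low as 2 higher without p38i replicate 2 and 2 lower without p38i replicate 1. On the TGF-beta side the receptor gene Tgfbr2 stood at 77 and 83 against 135 and 137 and Ltbp3, which holds latent TGF-beta in the matrix, at 28 and 30 against 44 and 46. In the list of cytokines, chemokines and proteases 9 of 30 (30.0%) were higher and 10 (33.3%) lower, both above the shares over all genes tested. Timp2, an inhibitor of matrix metalloproteases, went from 258 and 266 to 682 and 623 (log2 fold change 1.31, standard error 0.05, adjusted p = 9.2e-13, limma), Plat, tissue plasminogen activator, from 15 and 16 to 40 and 41, and the chemokine gene Cxcl12 from 4 and 3 to 14 and 14. Mmp3, stromelysin, fell from 27 and 39 to 7 and 8, Plaur, the urokinase receptor, from 93 and 94 to 44 and 34, and the interferon-induced chemokine gene Cxcl10 from 5 and 5 to 0 and 1, the last not called without p38i replicate 1 (log2 fold change -1.58).

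Metabolic lists held called genes in both directions. In cholesterol and fatty acid synthesis 10 of 34 genes (29.4%) were higher and 8 (23.5%) lower, against 16.5% and 17.6% of all genes tested. Hmgcs1 and Idi1, which encode enzymes of the mevalonate pathway, were lower, Hmgcs1 at 133 and 129 against 77 and 79 and Idi1 at 100 and 107 against 59 and 64. The late sterol reductase genes Dhcr7 (66 and 69 against 119 and 123) and Tm7sf2 (31 and 37 against 62 and 63), the desaturase gene Scd2 (893 and 902 against 1444 and 1536) and the lipogenic factor gene Srebf1 (156 and 146 against 235 and 267) were higher. In glycolysis and hypoxia 7 of 31 were higher and 7 lower (22.6% each), and without p38i replicate 1 the higher count was 4. Slc2a3, a high-affinity glucose transporter, stood at 65 and 69 against 20 and 19 (log2 fold change -1.73, standard error 0.17, adjusted p = 2.4e-07, limma), Slc2a1 at 86 and 85 against 53 and 56 and Eno1 at 692 and 708 against 500 and 468. Ldhb, the lactate dehydrogenase subunit of oxidative tissues, rose from 116 and 105 to 174 and 159, and Bnip3, a mitophagy receptor, from 18 and 19 to 30 and 35, which was not called without p38i replicate 2 (log2 fold change 0.67). Nuclear genes of the respiratory chain had 1 of 45 higher and 7 lower (15.6%, near the share of all genes), with a median of -0.05, and ribosomal protein genes none of 55 higher and 20 lower, with a median of -0.10. Without DMSO replicate 1 or p38i replicate 2 these lower counts were 4 and 7, and the higher respiratory chain gene was not called without replicate 1 of DMSO or of p38i. In the ATF4 list 3 of 31 were higher and 13 lower, among them the cystine transporter gene Slc7a11 (12 and 11 against 7 and 5). In the list of metallothioneins and oxidative stress 2 of 19 were higher and 10 lower, led by the NRF2 target Nqo1 (91 and 86 against 38 and 36), while Mt1 (1412 and 1388 against 1919 and 1787) and Hmox1 (179 and 191 against 239 and 240) rose.

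Imprinted genes, which are expressed from the copy of a single parent, were mostly higher. Of 22 tested, 13 (59.1%) were higher and 2 (9.09%) lower, with a median of 0.43. H19 and Igf2, the reciprocally imprinted pair of chromosome 7, stood at 297 and 348 against 677 and 762 and at 156 and 163 against 300 and 307. Meg3, the maternal non-coding RNA of the Dlk1-Dio3 cluster, stood at 16 and 18 against 36 and 39, and Cdkn1c, a growth-restraining cell cycle inhibitor, at 15 and 10 against 24 and 28. The lower members were Peg10, a retrotransposon-derived placental gene, at 21 and 21 against 5 and 5 (log2 fold change -1.87, standard error 0.09, adjusted p = 2.2e-11, limma), and Dio3, a thyroid hormone deiodinase, at 42 and 47 against 16 and 14. Of 11 genes of DNA methylation and demethylation, 6 were lower and 1 higher, and the higher call was lost when any 1 of the 4 libraries was left out and with a replicate block. The methyltransferase gene Dnmt3b stood at 7 and 6 against 2 and 0, Dnmt1 at 91 and 87 against 52 and 56, and Zfp57, which guards imprints, at 130 and 142 against 91 and 98.

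Markers of other lineages were sparse. Of 12 endothelial markers 4 were tested, of 10 adipocyte markers 4 and of 12 skeletal muscle markers 2, and none of these was called. None of 8 erythroid markers was high enough to be tested. Of 4 neural genes tested, Tubb3 (34 and 30 against 24 and 19) and Stmn2 (123 and 131 against 92 and 85) were lower. Among chondrocyte and osteoblast markers Col2a1 stood at 60 and 57 against 45 and 43 and Alpl, an alkaline phosphatase that pluripotent cells also express, at 171 and 162 against 95 and 97, with the Alpl call lost when any 1 of the 4 libraries was left out (log2 fold change -0.75 to -0.83). Of the 173 genes that fell at least 2-fold from a DMSO mean of at least 20, 27 carry clone or model names. The share of such names among all genes tested was not computed.

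The genes were also grouped by their course before day 7, from MEFs to DMSO cells on day 5. The means of these libraries do not enter the day 7 difference, but the libraries share its model and estimate of the spread. Over all genes tested, limma called 23.7% with a rise of at least 2-fold and 7.91% with such a fall. Of the 3136 genes that rose during this course, 702 (22.4%) were lower and 469 (15.0%) higher in p38i on day 7, against 17.6% and 16.5% of all genes. Of the 1046 genes that fell, 303 (29.0%) were higher and 153 (14.6%) lower. Aebp1, at 444 and 413 in MEFs, and Tnc, at 687 and 676, are examples of the second group, and Cdh1, Krt8 and Zfp42, all at 0 in MEFs, of the first. Among the 2186 genes that were higher on day 7, 21.5% belonged to the rising and 13.9% to the falling group, so most genes belonged to neither.

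The difference on day 7 was compared with that on day 5, which has its own DMSO libraries. Of the genes higher on day 7, 793 were also called higher on day 5, 35 lower and 1358 not called, and of the genes lower on day 7, 1438 were called lower on day 5, 5 higher and 880 not called. The test of the difference of differences called 750 genes (5.67%), of which 544 (4.11%) moved up relative to DMSO from day 5 to day 7 and 206 (1.56%) moved down. After quantile normalization the split was 414 and 346. The count was 337 without DMSO replicate 2 of day 5, 350 and 433 without replicates 1 and 2 of DMSO on day 7, and 348 without p38i replicate 2 of day 7. The moves up were led by interferon genes, whose deficit in p38i had been deeper on day 5. Iigp1 stood at 115 and 111 against 2 and 2 on day 5, and its difference changed by 3.02 on the log2 scale (standard error 0.29, adjusted p = 5.9e-06, limma) as the DMSO value fell to 21 and 19. Il18bp, an interleukin 18 antagonist, stood at 31 and 36 against 1 and 2 on day 5 and at 7 and 10 against 4 and 2 on day 7. Ifi47 stood at 267 and 266 against 18 and 16 and then at 112 and 103 against 33 and 33. The median of the interferon list was -1.46, -0.99 and -0.32 on days 3, 5 and 7, and 21 of its 45 genes were called up in this test and none down. For MHC class I presentation the medians were -0.99, -1.60 and -0.75, with 11 of 16 genes called up. Macrophage markers also moved, with a median of -1.27 on day 5 against -0.73 on day 7 and 4 of 18 genes called up, among them Marco, at 50 and 56 against 3 and 2 on day 5. With 1 of the 8 libraries left out, 10 to 15 interferon genes and 6 to 9 presentation genes were called up, fewest without DMSO replicate 2 of day 5 and without p38i replicate 2 of day 7. With only the 4 groups compared in the fit, 5 presentation genes and 2 macrophage markers were called up. With a pseudocount of 0.1, 11 interferon genes were called up.

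**Figure D3:**
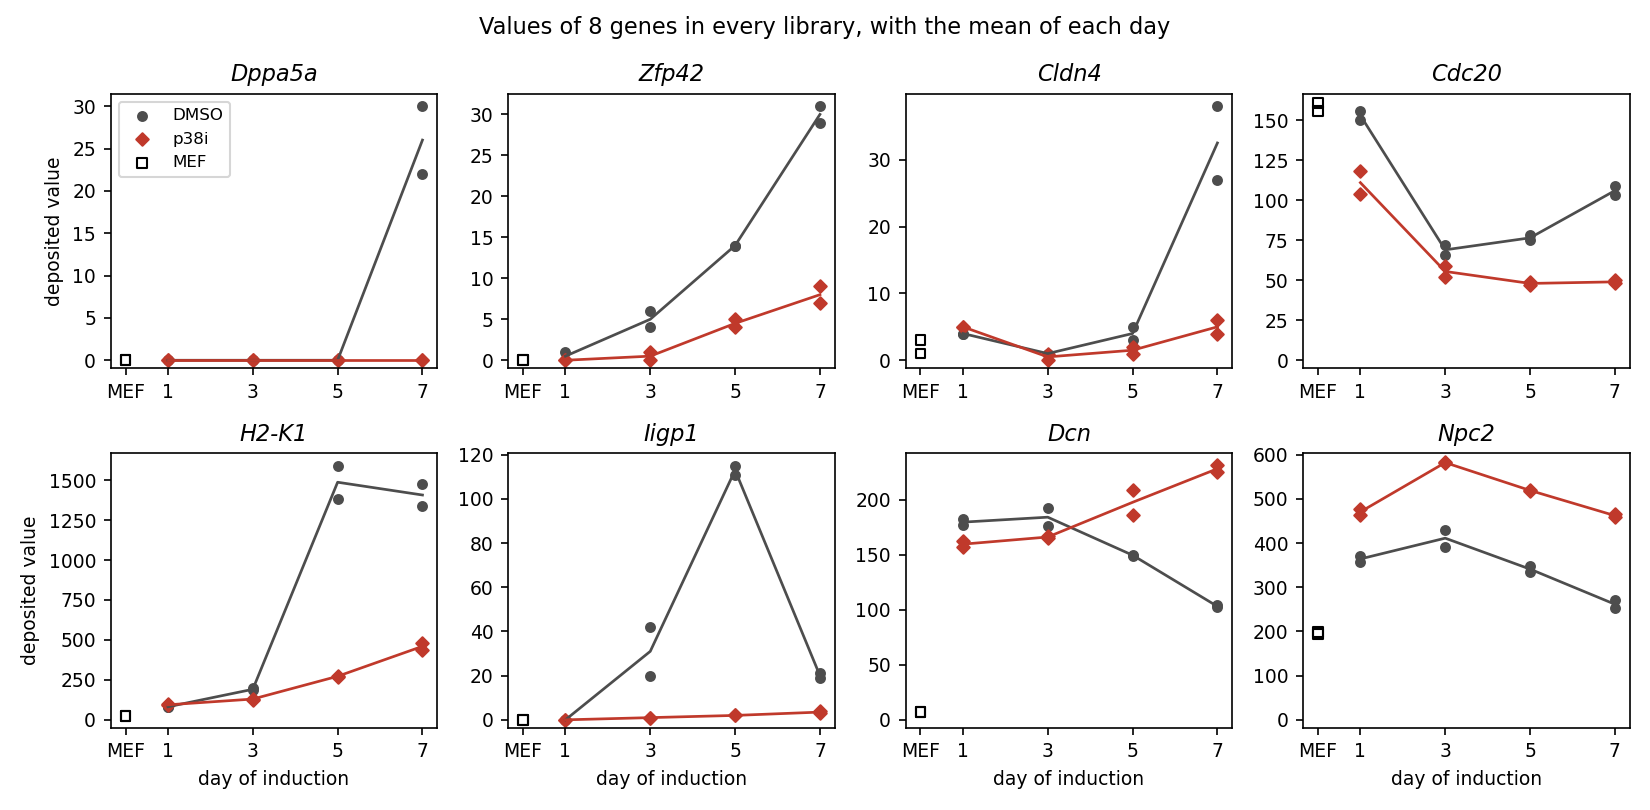
Deposited value (linear axis) by day of induction in each DMSO (circles) and p38i (diamonds) library for 8 genes, with lines through the mean of the 2 libraries and MEF libraries as squares; Dppa5a is above 0 on day 7 in DMSO alone, Iigp1 peaks on day 5 in DMSO, and the Dcn curves cross between days 3 and 5.

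The median difference of matrix genes changed sign over time. For the matrix glycoproteins the median was -0.45, -0.14 and 0.29 on days 3, 5 and 7, and 19 of 36 genes were called up between days 5 and 7 and none down. For the collagens it was -0.49, -0.25 and 0.18, and 17 of 32 were called up. Mmp12 stood at 28 and 32 against 29 and 25 on day 5, before the difference of day 7 given above. The lysosome list was higher on each day, with medians of 0.23, 0.20, 0.27 and 0.48 on days 1, 3, 5 and 7, and 11 of its 41 genes were called up. Moving down were late pluripotency genes, of which 5 of 20 were called. Dppa5a was at 0 in every DMSO and p38i library of days 1, 3 and 5, and Mylpf stood at 4 and 4 against 2 and 4 on day 5. Cd209f and Cd209g, at 10 and 8 and at 9 and 7 in DMSO on day 5, were already at 0 in p38i, and Peg10 had stood at 7 and 8 against 6 and 6. The difference also widened for 10 of 40 mitosis genes and 10 of 40 replication genes, with Cdc45 at a log2 fold change of -0.30 on day 5 against -1.46 on day 7. With 1 of the 8 libraries left out, 11 to 17 matrix genes, 7 to 19 collagen genes, 7 to 10 lysosome genes, 5 to 11 mitosis genes and 2 to 8 replication genes were called, the fewest replication genes without DMSO replicate 1 of day 7 and the fewest matrix and collagen genes without DMSO replicate 2 of day 5. With only the 4 groups compared in the fit, 8 matrix genes, 3 lysosome genes, 3 pluripotency genes, 1 mitosis gene and no collagen or replication gene were called. With a pseudocount of 0.1, 3 pluripotency genes were called.

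**Figure D4:**
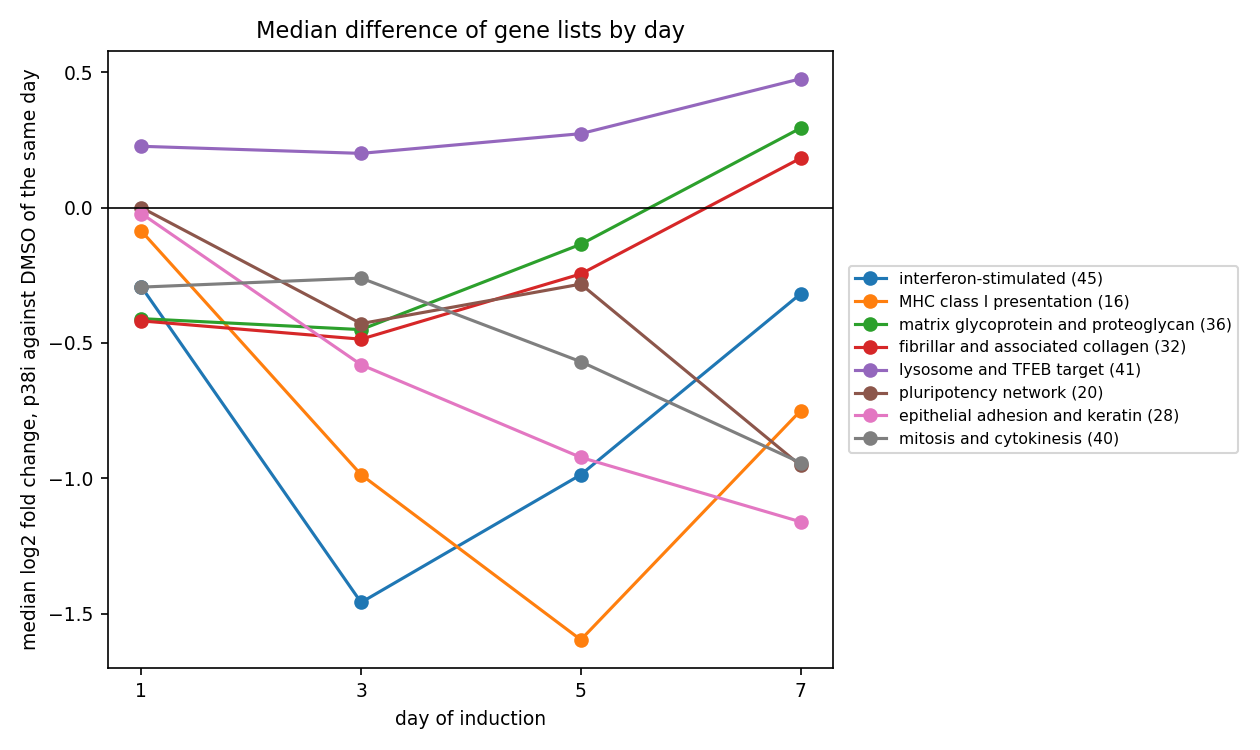
Median log2 fold change of p38i against DMSO of the same day on days 1, 3, 5 and 7 for 8 gene lists, with the members tested in parentheses; the interferon list is lowest on day 3 (-1.46), the matrix and collagen lists lie below 0 on day 5 and above 0 on day 7, and the lysosome list is above 0 on each day.

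The pre-p38i libraries of day 7 are set beside these values without a test of likeness, because both comparisons use the same DMSO libraries. The list medians in pre-p38i and p38i were 0.51 and -0.95 for the pluripotency network, 0.64 and -1.16 for epithelial genes, 0.61 and -0.94 for mitosis, -0.81 and 0.29 for matrix glycoproteins, -0.25 and 0.48 for the lysosome and 0.42 and -0.75 for MHC class I presentation. Dppa5a stood at 50 and 41 in pre-p38i and Bhmt at 58 and 67, above the DMSO libraries, while Aebp1 stood at 13 and 12 and Tnc at 5 and 4, below them. For macrophage markers the medians were -1.76 and -0.73, and for cytokines, chemokines and proteases -0.78 and -0.28.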

How the data were processed

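RNA-seq was made from 28 libraries in 14 groups of 2, and the series deposited a single table of 50600 genes with a column per library, all of which were matched to a sample (0 columns left over). The submitters' processing notes name bcl2fastq, Bowtie2 2.2.5 and RSEM 1.3.0 and the builds mm10 and hg38 without roles. Whether counting used strand is not given in the sources used here. The values deposited by the authors are whole numbers whose totals lie between 991287 and 992537 in every library. They were therefore treated as a score, read as TPM that the authors rounded down to whole numbers, which makes levels of 1 or 2 coarse and hides the read depth.

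Values were set to log2(value + 1), and 13230 genes whose mean over all 28 libraries reached 1 were fitted with limma 3.58.1 in R 4.3.3 (empirical Bayes moderation with a mean-variance trend, a mean per group, 14 residual degrees of freedom, Benjamini-Hochberg adjustment over all genes tested). Because all groups share an estimate of the spread, a group's own spread enters only in part. The contrasts were p38i against DMSO on day 7, the change of that difference from day 5, and DMSO on day 5 against MEFs. The fit was tested on simulated data. As alternatives, the filter was dropped or raised to a mean of 5, and a pseudocount of 0.1, only the groups compared, quantile normalization, a replicate block, and the omission of each library were tried.

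Named were the 12 called genes with the largest rise and the 12 with the largest fall among symbols with a group mean of at least 20 and groups that do not overlap, up to 4 called members of each list in each direction with a mean of at least 5 and defining members, the 5 largest differences of differences each way, and genes the paper discusses. Some genes that met this rule are not reported here. Other list members given with their values were chosen after their values were seen. The groups and gene lists were chosen with earlier results of these data known. Near-identical genes share at least 95% identity over at least 200 bases of transcript (BLAST 2.17.0+). Gene positions are those of the deposited table, of which 92.5% of genes have the same coordinates in GENCODE M21 (GRCm38), and 27 symbols turned into dates were named nowhere. Promoters are RefSeq's for GRCm38.p6. Considered for the windows shown were promoters of called members with a mean of at least 5, with a single chromosome left out. For the MEF medium, the RNA extraction and the library kit, the paper and the labels give different names.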

Additional observations from a re-analysis of the deposited data

Results flagged for a closer look

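The results given here were picked out because the difference between p38i and DMSO on day 7 differed from that on day 5 (limma's interaction contrast, adjusted p under 0.05 over all genes tested). They comprise the count of 750 genes and the genes named above that passed the test, and every value is the change of the log2 fold change from day 5 to day 7, with no explanation weighed. Leaving out at least 1 of the 8 libraries ended the call for 22 of these genes, which were Col1a1, Cdc20, Idi1, Eif2ak2, Il18bp, Srebf1, Psmb9, Plat, Zfp57, H2-Q7, Dnmt1, Bmp1, Ncapg, Ctsa, Capn6, Bhmt, Tgm3, Mt1, Eno1, Adamts14, Hmgcs1 and Tap1. The call of Tap1 was lost without each of the 8 in turn.

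Among interferon genes the change was 3.02 for Iigp1, 2.54 for Il18bp, 2.49 for Tgtp2, 2.22 for Ifi47, 1.85 for Gbp2, 1.73 for Irgm2, 1.65 for Igtp, 1.48 for Tgtp1, 0.76 for Bst2 and 0.51 for Eif2ak2. For antigen presentation it was 1.87 for H2-Q6, 1.35 for Psmb9, 1.34 for H2-Q4, 1.11 for H2-Q7, 0.91 for Tap1 and 0.83 for H2-K1. It was 2.31 for Marco, 1.77 for Mmp12 and 1.298 for Lyz2. With a pseudocount of 0.1, the calls of Il18bp, Tgtp2, Ifi47, Irgm2, Igtp, Tgtp1, Psmb9, Tap1 and Marco were lost. Genes of the matrix and of mesenchymal cells changed by 0.79 for Adamts14, 0.75 for Aebp1, 0.74 for Dcn, 0.69 for Tnc, 0.66 for Matn2, 0.64 for Ccn1, 0.57 for Ccn2, 0.55 for Col1a1, 0.54 for Timp2, 0.54 for Prrx1, 0.48 for Col1a2, 0.46 for Twist1 and 0.46 for Bmp1. Other genes that moved up were H19 and Id3 (both 0.82), Tgm3 (0.73), Igf2 (0.72), Itm2a (0.63), Zfp57 (0.62), Capn6 (0.52), Plat (0.52), Hmox1 (0.51), Srebf1 (0.38) and Ctsa (0.26).

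The pluripotency genes moved down, by -4.74 for Dppa5a, -3.17 for Sall4, -2.66 for Esrrb and -2.39 for Nanog. The first 3 are listed at 0 in p38i on day 7, so the size of their values depends on the pseudocount of 1. The call of Nanog was lost with a pseudocount of 0.1 (-1.94, adjusted p = 0.41, limma) and with only the groups compared in the fit. Cell cycle genes moved down by -1.16 for Cdc45, -0.63 for Plk1, -0.58 for Ncapg, -0.51 for Uhrf1, -0.44 for Cdc20 and -0.36 for Dnmt1. The other moves down were -3.04 for Mylpf, -2.12 for Cd209g and Cd209f, both listed at 0 in p38i, -1.60 for Peg10, -1.29 for Bhmt, -1.11 for Slc2a3, -0.47 for Hmgcs1, -0.44 for Idi1, -0.32 for Mt1 and -0.31 for Eno1. Of these, the calls of Mylpf, Cd209f, Cd209g and Slc2a3 were lost with a pseudocount of 0.1.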

How the results depend on the processing

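The direction of the day 7 contrast was kept throughout: all 159 genes named with a value on day 7 and tested kept the sign of any called change. Of the 141 called ones, 102 were called under every alternative in which they were tested. The filter at a mean of 5 removed some of the named genes. With only the groups compared in the fit, which leaves fewer libraries to estimate the spread, 2749 genes were called on day 7 (1303 higher, 1446 lower), 178 in the test of the difference between days, and 28 of the named calls were lost. A pseudocount of 0.1 ended 14 of the named day 7 calls and 15 of those in the test between days. The 14 were Alpl, Bmp2, Cd3g, Cldn3, Dio3, Dsg2, Ifi47, Il18bp, Irgm2, Krt8, Marco, Psmb8, Tgtp1 and Zfp42. Asking for a 2-fold change left 752 genes (198 higher, 554 lower). Leaving out 1 library gave 3243 to 3487 called genes on day 7 (1506 to 1699 higher, 1721 to 1796 lower), 337 to 644 in the test between days and 4142 to 4274 for the course from MEFs. Of the 63 genes named from the test between days, 16 were called under every alternative in which they were tested. The difference of Bhmt reversed to 0.30 with a pseudocount of 0.1. List medians reversed for the respiratory chain (-0.057 to 0.0048 with 1 library left out, the last without p38i replicate 2), cytokines, chemokines and proteases (0.048 with a minimum mean of 5) and trophoblast markers (-0.038 to 0.30, the first without p38i replicate 1). The cause was not tested. The depth is unknown, and values in whole units limit what can be said of genes under about 5.

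Deviations from the group means were not shared by same-numbered libraries (r = -0.0041 between DMSO and p38i on day 7, and -0.084 to 0.087 over all pairs of groups). With a replicate block within each time point, 4287 genes were called on day 7 (2041 higher, 2246 lower) and 541 in the test between days.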
